A study of Mus musculus with 14 samples.

Results

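Xin repeat and Z-disc stress genes were followed in the left ventricle (LV) of mice with and without pressure overload. The set holds 8 genes (Xirp1, Xirp2, Nrap, Flnc, Csrp3, Fhl1, Fhl2 and Synpo2l) of the 49315 genes counted, found by symbol, and all 8 were among the 15292 genes with enough reads for a test. They were picked from earlier results of the same libraries as load-responsive proteins of the Z-disc or intercalated disc. Their differences under transverse aortic constriction (TAC) are therefore given as a description, and the counts of members past a threshold in those comparisons are no independent evidence. The comparison of genotypes after TAC and that of their TAC differences share these libraries, so the same holds for their counts. PolyA-selected RNA from 14 LV samples was compared: 4 WT-Sham, 4 HCN4F-Sham, 2 WT-TAC (replicates 2 and 3) and 4 HCN4F-TAC. HCN4F mice carry a knock-in that exchanges a tyrosine for a phenylalanine in the Hcn4 pacemaker channel, a gain-of-function change, while WT mice carry the unchanged channel. All animals were male and 10 to 12 weeks old at surgery, and hearts were taken 5 weeks after the aorta had been narrowed (TAC) or after the sham operation. The sources used here do not say whether the knock-in animals carried 1 or 2 changed alleles. The question was how these genes differed between Sham and TAC, and whether that depended on the genotype.

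The Z-disc is the protein lattice that anchors the actin filaments of neighbouring sarcomeres, and the intercalated disc joins cardiomyocytes end to end and passes force between them. Xirp1 and Xirp2 encode proteins whose Xin repeats bind and stabilise actin, with Xirp1 at the intercalated disc of the heart. Nrap, a LIM protein with nebulin-type repeats, anchors the last actin filaments of a myofibril to the membrane, and Flnc encodes filamin C, the muscle filamin, which crosslinks actin and binds Xin proteins. Synpo2l is an actin-associated protein of the synaptopodin family at the Z-disc. Csrp3 encodes muscle LIM protein, and Fhl1 and Fhl2 are LIM-domain proteins that bind titin and signalling proteins. Several of these proteins are known to gather where sarcomeres are strained or damaged.

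The genes lie on 8 different chromosomes. In GRCm38 Xirp1 (ENSMUSG00000079243) spans chr9:120013755-120023598, on the chromosome that also holds Hcn4, 61.2 Mb away from it. Xirp2 (ENSMUSG00000027022) spans chr2:67446002-67526614, Nrap (ENSMUSG00000049134) chr19:56320035-56390037 and Flnc (ENSMUSG00000068699) chr6:29433256-29461883. Synpo2l (ENSMUSG00000039376) spans chr14:20658946-20668354 and Csrp3 (ENSMUSG00000030470) chr7:48830398-48848033. Fhl1 (ENSMUSG00000023092) spans chrX:56731787-56793346 and Fhl2 (ENSMUSG00000008136) chr1:43123074-43196984. The only protein-coding gene that shares exonic bases with a member is Habp2, which overlaps Nrap by 268 bases on the other strand. Habp2 had 70 to 171 reads per library against 11354 to 40527 for Nrap.

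RefSeq (GRCm38.p6) gave 12 promoters for 7 of the 8 members, each with 250 bases before and 50 bases after a transcription start. Xirp1 was the member without a promoter. They were searched on both strands for the MCAT element (CATTCC), the TATA box (TATAAA), the CArG box and the MEF2 site, the letters known to be bound by TEAD factors, the TATA-binding protein, serum response factor and MEF2 factors. A MEF2 site was found for Xirp2, Synpo2l and Fhl2 and in 3.16% of all 32544 promoters, and a CArG box for Fhl1 and Fhl2 and in 1.64% of all promoters. MCAT was found for Flnc, against 14.6% of all promoters, and TATA for Fhl1 and Fhl2, against 13.6%. In Fhl2 the TATA match lies within the MEF2 match. None of the 4 motifs was found for Csrp3 or Nrap in these windows. The 120 bases just before a start are printed for the 5 members with an MCAT, CArG or MEF2 match, with these matches in capitals. The other Fhl1 promoter, not printed, held no match. In their TAC response the 5 members run from Synpo2l with the largest difference to Fhl2 with the smallest. The windows are chr2:67445882-67446001 on the plus strand (Xirp2), chr14:20668355-20668474 on the minus strand (Synpo2l), chr6:29433136-29433255 on the plus strand (Flnc), chrX:56779563-56779682 on the plus strand (Fhl1) and chr1:43196762-43196881 on the minus strand (Fhl2).
Xirp2: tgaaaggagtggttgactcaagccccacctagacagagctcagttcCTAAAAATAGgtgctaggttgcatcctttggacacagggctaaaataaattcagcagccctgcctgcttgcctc
Synpo2l: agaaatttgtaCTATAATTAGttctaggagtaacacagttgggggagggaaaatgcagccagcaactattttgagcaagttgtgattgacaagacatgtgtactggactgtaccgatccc
Flnc: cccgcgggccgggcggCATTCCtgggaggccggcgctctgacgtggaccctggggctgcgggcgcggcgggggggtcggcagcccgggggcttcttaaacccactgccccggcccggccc
Fhl1: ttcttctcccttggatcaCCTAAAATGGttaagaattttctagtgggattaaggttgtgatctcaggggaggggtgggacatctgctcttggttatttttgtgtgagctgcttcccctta
Fhl2: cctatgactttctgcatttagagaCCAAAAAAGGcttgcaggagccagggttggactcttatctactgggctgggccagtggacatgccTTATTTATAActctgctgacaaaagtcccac

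The libraries held 22309914 to 35210939 reads on genes, and the members between 1309 and 59816 reads each, so counting error was small beside the spread between animals. Levels are given as CPM on the TMM scale, the reads of a gene relative to all reads on genes of its library. The labelled tissue was checked against 8 cardiomyocyte markers. Their summed level was 72200 to 74800 CPM in WT-Sham and 67000 and 67300 CPM in WT-TAC libraries. It was 64100 to 68500 CPM in HCN4F-Sham and 54200 to 61000 CPM in HCN4F-TAC libraries. The sum of 6 skeletal muscle markers reached at most 2.97 CPM. HCN4F-TAC replicate 2 stood apart with 31.0 CPM over 4 atrial markers, among them Myl4 at 17.3 CPM, where every other library had 5.04 CPM or less. The fitted differences of the members in HCN4F-TAC hearts, and of the related genes called there, are given with and without it. In whole tissue, fewer cells of a type and less RNA per cell cannot be told apart. Hcn4 had 3.49 to 13.4 CPM, and since the knock-in leaves the transcript in place this level checks no label.

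**Figure D1:**
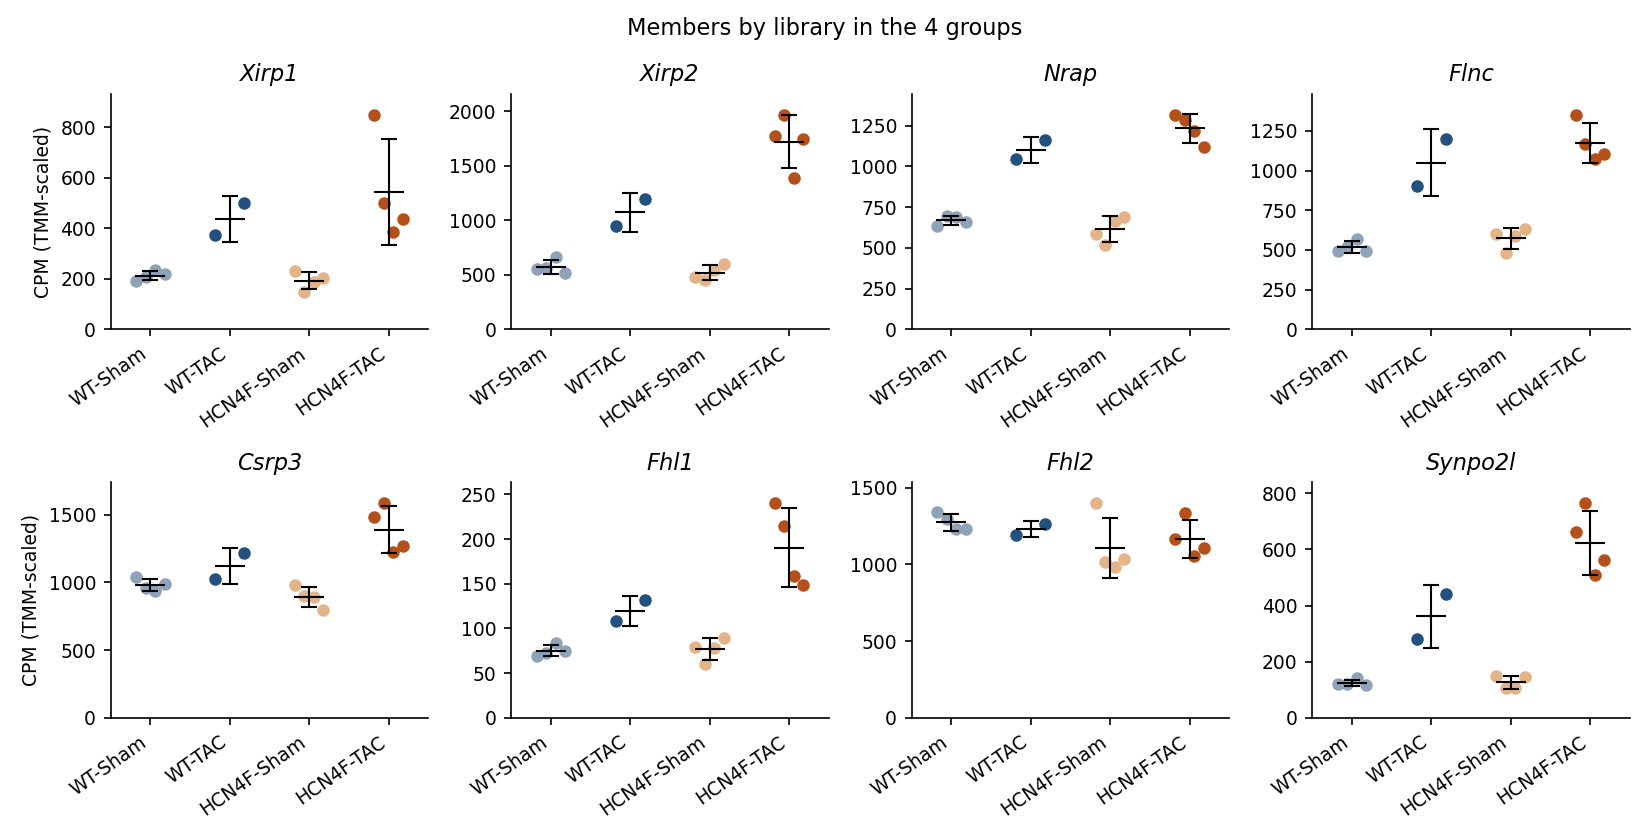
TMM-scaled CPM of each member in every library, by group, on axes that start at 0. Points are libraries, the horizontal mark is the group mean and the bars are 1 SD (n = 4, but n = 2 for WT-TAC). All TAC libraries lie above the Sham libraries of their genotype for Xirp1, Xirp2, Nrap, Flnc, Fhl1 and Synpo2l, whereas Fhl2 overlaps in both genotypes and Csrp3 in WT.

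Levels of different genes were compared per kilobase of exon. In WT-Sham hearts Fhl2 was the most abundant member at 672 CPM per kb ± 28.7 (SD, n = 4), followed by Csrp3 at 368 ± 16.5 and Nrap at 122 ± 4.94. Flnc (55.0 ± 3.82) and Xirp2 (47.9 ± 5.40) overlapped in range and are not ordered beyond their spread. Xirp1 (36.5 ± 3.14), Synpo2l (27.1 ± 2.20) and Fhl1 (20.2 ± 1.69) came last, and their ranges did not overlap. When length was taken from the longest transcript, Synpo2l (28.5 CPM per kb) and Fhl1 (27.1 CPM per kb) did overlap. The relatives Fhl1 and Fhl2 thus stood at opposite ends of the order.

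After TAC the order in HCN4F hearts was tighter. Fhl2 had 615 CPM per kb ± 64.4 (SD, n = 4) and Csrp3 520 ± 64.2, with overlapping ranges, and Nrap followed at 224 ± 15.9. Xirp2 (144 ± 20.2), Synpo2l (135 ± 24.5), Flnc (125 ± 13.2) and Xirp1 (93.1 ± 35.8) overlapped with one another in range. Fhl1 was lowest at 51.2 ± 11.8. By the longest transcript Fhl2 (675 to 855 CPM per kb) lay above Csrp3 (502 to 650) without overlap, and Fhl1 (53.5 to 86.6) overlapped Xirp1 (66.3 to 146). Synpo2l, next to last in WT-Sham, had moved to the level of Xirp2 and Flnc.

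**Figure D2:**
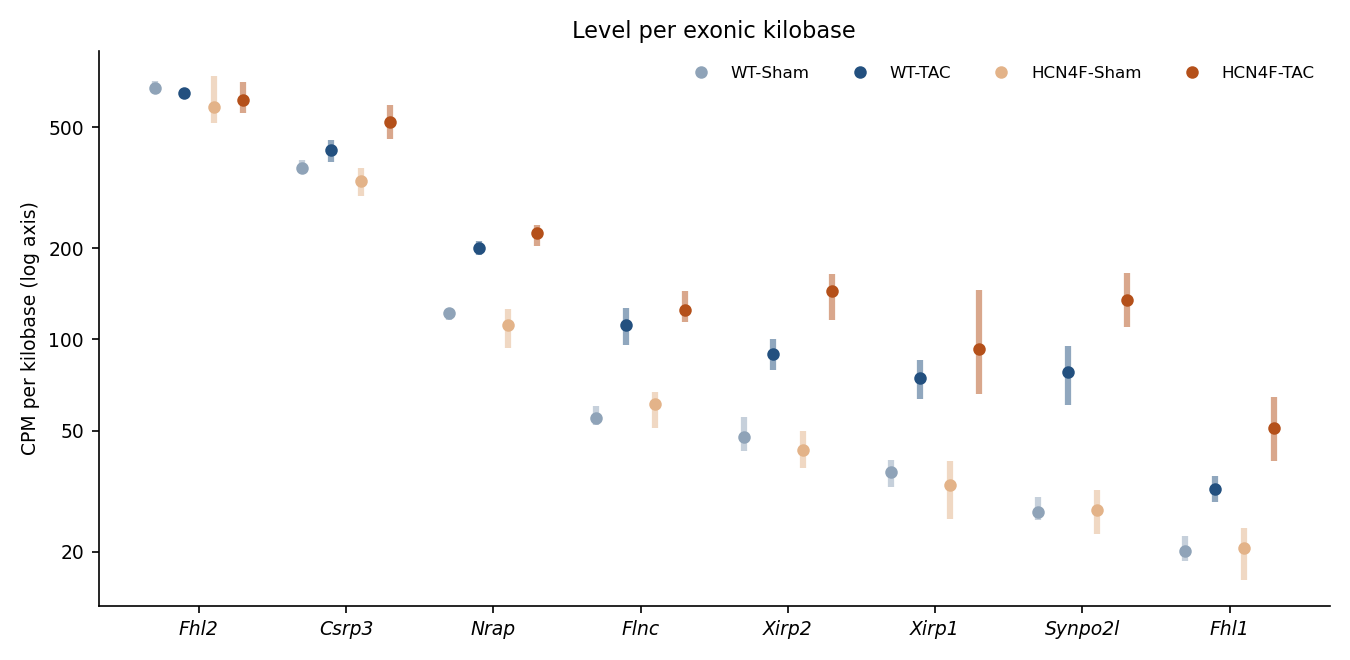
Level of each member per exonic kilobase, on a log axis, in the 4 groups. Points are group means and vertical bars run from the lowest to the highest library (n = 4, but n = 2 for WT-TAC). The members spread from 672 (Fhl2) to 20.2 CPM per kb (Fhl1) in WT-Sham hearts.

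Xirp1 and Xirp2, the Xin repeat genes, were higher after TAC in both genotypes. Xirp1 had 191.2, 207.1, 234.1 and 220.3 CPM in WT-Sham and 373.0 and 500.8 CPM in WT-TAC hearts. In HCN4F-Sham it had 233.0, 149.4, 186.5 and 204.4 CPM, and in HCN4F-TAC 849.7, 501.7, 387.0 and 436.8 CPM. No TAC library overlapped with Sham, and replicate 1 of HCN4F-TAC stood far above the other 3. The log2 fold change was 1.04 ± 0.26 (SE) in WT and 1.49 ± 0.22 in HCN4F, and without that replicate the latter was 1.19.

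Xirp2 had 555.9, 561.9, 665.9 and 513.6 CPM in WT-Sham and 947.9 and 1200 CPM in WT-TAC hearts. In HCN4F-Sham it had 478.2, 452.1, 547.1 and 600.1 CPM, and in HCN4F-TAC 1777, 1968, 1389 and 1751 CPM. The 4 groups formed 3 steps: both Sham groups together, WT-TAC above them, and all HCN4F-TAC libraries above WT-TAC. The log2 fold change under TAC was 0.90 ± 0.14 (SE) in WT and 1.73 ± 0.12 in HCN4F. The ratio of Xirp2 reads to Xirp1 reads also carries their exonic lengths of 11979 and 5839 bases. It was 2.33 to 2.91 in WT-Sham and 2.54 and 2.40 in WT-TAC libraries. In HCN4F it was 2.05 to 3.03 in Sham and 2.09 to 4.01 in TAC libraries. In both HCN4F groups replicate 1, the one with the highest Xirp1, gave the lowest ratio.

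Among the actin crosslinking and anchoring genes, Synpo2l differed most from Sham. Synpo2l had 122.0, 121.0, 140.3 and 117.7 CPM in WT-Sham and 282.3 and 441.8 CPM in WT-TAC hearts. It had 147.5, 105.8, 108.1 and 146.3 CPM in HCN4F-Sham and 663.3, 763.4, 507.0 and 561.4 CPM in HCN4F-TAC hearts. Like Xirp2, it formed 3 steps without overlap, with the 2 WT-TAC libraries far apart from each other. Its log2 fold change was 1.53 ± 0.19 (SE) in WT and 2.30 ± 0.17 in HCN4F, which is 2.89-fold and 4.91-fold.

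Filamin C was about equally higher in both genotypes. Flnc had 493.4, 516.6, 568.6 and 491.3 CPM in WT-Sham and 900.2 and 1198 CPM in WT-TAC hearts, and 599.2, 480.2, 584.9 and 634.1 CPM in HCN4F-Sham. In HCN4F-TAC it had 1350, 1165, 1071 and 1104 CPM, and the WT-TAC libraries fell below and within that range. Flnc thus gave a log2 fold change of 1.02 ± 0.12 (SE) in WT and 1.03 ± 0.11 in HCN4F.

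Nrap had 636.8, 695.3, 688.1 and 657.4 CPM in WT-Sham and 1044 and 1159 CPM in WT-TAC hearts. It had 587.2, 518.0, 663.8 and 691.7 CPM in HCN4F-Sham and 1315, 1283, 1216 and 1117 CPM in HCN4F-TAC hearts. TAC and Sham libraries did not overlap, but the TAC libraries of both genotypes did. The log2 fold change was 0.72 ± 0.10 (SE) in WT and 1.00 ± 0.09 in HCN4F.

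The 3 LIM-only genes did not move alike. Fhl1 had 69.1, 72.9, 83.8 and 74.6 CPM in WT-Sham and 108.0 and 131.4 CPM in WT-TAC hearts. It had 79.8, 59.7, 78.2 and 88.8 CPM in HCN4F-Sham and 239.8, 214.2, 158.6 and 148.1 CPM in HCN4F-TAC hearts. As with Xirp2 and Synpo2l, every HCN4F-TAC library lay above both WT-TAC libraries, and these above all Sham libraries. For Fhl1 the log2 fold change was 0.67 ± 0.18 (SE) in WT and 1.31 ± 0.15 in HCN4F.

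Csrp3 had 1042, 961.8, 939.0 and 990.0 CPM in WT-Sham and 1028 and 1214 CPM in WT-TAC hearts, so 1 WT-TAC library lay within the Sham range. It had 976.7, 900.4, 891.7 and 793.2 CPM in HCN4F-Sham and 1481, 1582, 1222 and 1268 CPM in HCN4F-TAC hearts, without overlap. Csrp3 thus gave a log2 fold change of 0.19 ± 0.11 (SE) in WT and 0.64 ± 0.09 in HCN4F. The WT value was 0.31 when WT-TAC replicate 2 was left out and 0.07 when replicate 3 was.

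Fhl2 stayed near its Sham level in both genotypes. It had 1342, 1296, 1231 and 1230 CPM in WT-Sham and 1192 and 1267 CPM in WT-TAC hearts. It had 1398, 1014, 980.8 and 1037 CPM in HCN4F-Sham and 1167, 1336, 1056 and 1105 CPM in HCN4F-TAC hearts. The ranges of all 4 groups overlapped. Its log2 fold change was -0.05 ± 0.13 (SE) in WT and 0.07 ± 0.10 in HCN4F. HCN4F-Sham replicate 1 lay well above its group, and without it the HCN4F value was 0.21 ± 0.08. The promoter windows of Fhl2 hold the MEF2 and CArG letters that were also found for Xirp2, Synpo2l and Fhl1.

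The ratio of Fhl1 reads to Fhl2 reads compares groups without any scaling between libraries, though it is no ratio of levels per length. It was 0.0515 to 0.0681 in WT-Sham and 0.0571 to 0.0857 in HCN4F-Sham libraries. The ratio was 0.0905 and 0.104 in WT-TAC and 0.134 to 0.205 in HCN4F-TAC libraries, so the groups with TAC lay above all Sham libraries. The ratio of Csrp3 reads to Fhl2 reads was 0.742 to 0.805 in WT-Sham and 0.862 and 0.958 in WT-TAC libraries. It was 0.699 to 0.909 in HCN4F-Sham and 1.15 to 1.27 in HCN4F-TAC libraries, which lay above all others.

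**Figure D3:**
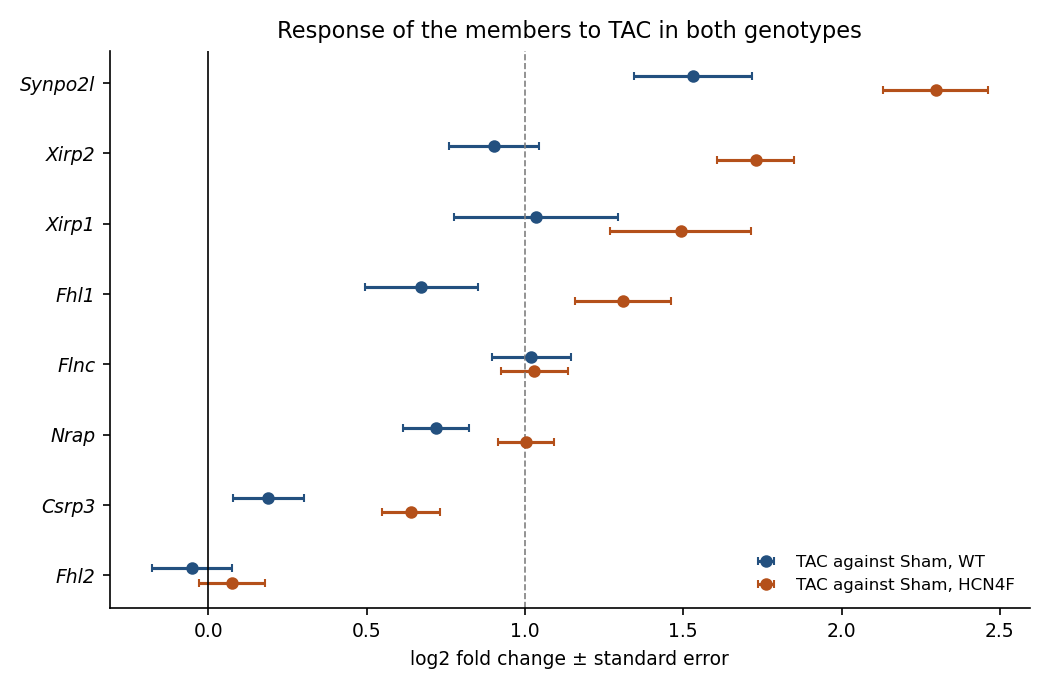
Log2 fold change of each member between TAC and Sham, with its standard error, in WT (blue) and HCN4F (orange). The dashed line marks a log2 fold change of 1. Values run from -0.05 (Fhl2) to 1.53 (Synpo2l) in WT and from 0.07 (Fhl2) to 2.30 (Synpo2l) in HCN4F.

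A call required a log2 fold change beyond 1 together with an adjusted p-value (edgeR's quasi-likelihood test, Benjamini-Hochberg over the whole table) under 0.05. In WT hearts 3 of the 8 members (Xirp1, Flnc and Synpo2l) were called higher after TAC, against 0.445% of all tested genes. By the adjusted p-value alone 6 members were higher, against 2.92%, the other 3 being Xirp2, Nrap and Fhl1. In HCN4F hearts 6 of 8 (all but Csrp3 and Fhl2) were called higher, against 1.58%, and 7, with Csrp3, by the adjusted p-value alone, against 7.20%. Every TAC library lay above every Sham library for 6 members in WT, against 19.2% of tested genes, and for 7 in HCN4F, against 7.95%. Since the members were chosen for their response to load, nothing is read from these counts. The median log2 fold change of the members was 0.81 in WT and 1.17 in HCN4F, beside -0.02 and -0.01 over all tested genes. Some cell type markers also differed in the same comparisons. By edgeR's adjusted p-value no smooth muscle, endothelial or macrophage marker passed in either genotype, and no fibroblast marker in WT. In HCN4F 2 of 5 fibroblast markers passed the adjusted p-value by edgeR, Col1a1 (1.14 ± 0.18 SE, 0.00125) and Lum (0.51 ± 0.12, 0.0103), and the fibroblast sum was 528 to 823 CPM after TAC against 449 to 567 CPM in Sham. In WT that sum was 417 and 479 CPM after TAC against 463 to 476 CPM. The smooth muscle sum over 4 markers was 200 and 215 CPM in WT-TAC against 289 to 408 CPM in WT-Sham, and 120 to 261 CPM in HCN4F-TAC against 183 to 347 CPM in HCN4F-Sham libraries. The cardiomyocyte sum was lower after TAC without overlap, at 67000 and 67300 CPM against 72200 to 74800 CPM in WT. In HCN4F it was 54200 to 61000 CPM against 64100 to 68500 CPM. By edgeR's adjusted p-value alone, 2 of the 8 cardiomyocyte markers were lower in WT. In HCN4F 4 were lower and 1 was higher. The part of these markers in the members' values was not tested.

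Several of these calls sat close to the threshold. The call of Xirp1 in WT was made in 11 of 21 alternative analyses. Without WT-TAC replicate 3, WT-Sham replicate 1 or WT-Sham replicate 4, 1 member was called in WT in place of 3, and that was Synpo2l. Without HCN4F-TAC replicate 1 or HCN4F-Sham replicate 2, 4 members were called in HCN4F in place of 6, as Nrap and Flnc fell below a log2 fold change of 1. Without HCN4F-TAC replicate 2, the library with atrial markers, 5 members were called in HCN4F, Nrap dropping to 0.98. The other log2 fold changes without it were 2.18 for Synpo2l, 1.65 for Xirp2, 1.53 for Xirp1, 1.25 for Fhl1, 1.03 for Flnc, 0.57 for Csrp3 and 0.0015 for Fhl2.

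In Sham hearts the libraries of the genotypes overlapped for every member. The share of all tested genes that overlap was not counted for this comparison. The log2 fold change of HCN4F against WT ran from -0.20 (Fhl2) to 0.15 (Flnc). None of the 8 was called, against 0.209% of tested genes in either direction. None had an unadjusted p-value under 0.05, against 2323 of the 15292 tested genes, and DESeq2 likewise gave none. With 8 genes, nothing is read from these counts. Fhl2 came nearest, at -0.20 ± 0.10 (SE) with an adjusted p of 0.358 by edgeR. Without HCN4F-Sham replicate 1 its value was -0.34 ± 0.08 and its adjusted p by edgeR 0.0311, still short of the fold that a call needed. The cardiomyocyte marker sum was 72200 to 74800 CPM in WT-Sham and 64100 to 68500 CPM in HCN4F-Sham libraries, and its part in the Fhl2 value was not tested.

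After TAC, 7 of 8 members had higher means in HCN4F than in WT hearts, and none was called, against 0.0719% of tested genes. Synpo2l was higher by a log2 fold change of 0.78 ± 0.20 (SE), Xirp2 by 0.68 ± 0.15 and Fhl1 by 0.67 ± 0.19. Their adjusted p-values by edgeR were 0.136, 0.0976 and 0.170. DESeq2 on all groups gave adjusted p-values of 0.0118 for Synpo2l, 0.00436 for Xirp2 and 0.0354 for Fhl1, so that the outcome at 0.05 depended on the tool, while the log2 fold changes stayed under 1 with either. The Synpo2l value depended on which WT-TAC library was used: it was 0.50 without replicate 2 and 1.14 without replicate 3, with adjusted p-values by edgeR of 0.761 and 0.139. Without the atrial-marker library the values were 0.66, 0.60 and 0.59, with adjusted p-values by edgeR of 0.305, 0.230 and 0.363.

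Csrp3 was the fourth gene whose HCN4F-TAC libraries all lay above both WT-TAC libraries (log2 fold change 0.31 ± 0.11 SE, adjusted p by edgeR 0.269). Without HCN4F-TAC replicate 2, its highest library, the Csrp3 value was 0.23, with an adjusted p by edgeR of 0.538, and it was 0.19 when WT-TAC replicate 2 was left out and 0.43 when replicate 3 was. Such a separation was seen in 4 of 8 members and 11.3% of tested genes. The same 4 genes had an unadjusted p-value under 0.05, against 12.5% of tested genes. As the members were picked for their response in these TAC libraries, nothing is read from these counts. Xirp1 (0.32 ± 0.27), Nrap (0.16 ± 0.11), Flnc (0.16 ± 0.13) and Fhl2 (-0.08 ± 0.13) overlapped between genotypes. The Xirp1 difference rested on HCN4F-TAC replicate 1, without which it was 0.02 ± 0.17. Without replicate 2 the values were 0.34 for Xirp1, 0.13 for Nrap, 0.15 for Flnc and -0.16 for Fhl2. Leaving out WT-TAC replicate 2 gave 0.12 for Xirp1, 0.09 for Nrap, -0.0326 for Flnc and -0.12 for Fhl2, and leaving out replicate 3 gave 0.54, 0.24, 0.38 and -0.03.

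Cell type markers differed between the same TAC groups. Each HCN4F-TAC library lay above both WT-TAC libraries for all 5 fibroblast markers, with sums of 528 to 823 CPM against 417 and 479 CPM. The cardiomyocyte marker sum was lower, at 54200 to 61000 CPM against 67000 and 67300 CPM. Of these markers 4 were lower without overlap (Myh6, Tnni3, Myl2 and Ryr2), while Actc1, Tnnt2, Myl3 and Pln overlapped. Myh6, the largest part of the sum, had means of 24080 CPM in HCN4F-TAC and 30630 CPM in WT-TAC. No marker of either list passed the adjusted p-value by edgeR. Among HCN4F-TAC libraries, replicate 1, with the highest cardiomyocyte sum, was highest for 4 members. Replicate 2, with the lowest cardiomyocyte and the highest fibroblast sum, was highest for the other 4, and replicate 3, with the lowest fibroblast sum, was lowest for 6. The part of these markers in the differences between genotypes was not tested.

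The interaction tested directly whether the TAC difference was unlike in the 2 genotypes. Its estimate was above 0 for all 8 members, from 0.01 ± 0.17 (SE) for Flnc to 0.83 ± 0.19 for Xirp2, with a median of 0.45 beside 0.01 over all tested genes. No member passed an adjusted p-value of 0.05 by edgeR. The adjusted p by edgeR was 0.315 for Xirp2, 0.450 for Synpo2l, 0.439 for Csrp3 and 0.467 for Fhl1. These 4 members had an unadjusted p-value under 0.05, against 9.27% of tested genes. The members were picked with results of these libraries known, so nothing is read from the shared sign or this count. DESeq2 on all groups gave Xirp2 an adjusted p of 0.0276, and edgeR without HCN4F-TAC replicate 3 also put Xirp2 past the threshold. Without HCN4F-TAC replicate 2 the estimates were 0.74 for Xirp2, 0.64 for Synpo2l, 0.37 for Csrp3 and 0.56 for Fhl1, and their adjusted p-values by edgeR 0.533, 0.658, 0.658 and 0.685. For Xirp1, Nrap, Flnc and Fhl2 they were 0.48, 0.25, -0.0051 and 0.04. Without HCN4F-TAC replicate 1 the Xirp1 estimate fell from 0.46 to 0.16. The Synpo2l estimate, 0.76 over all libraries, ranged from 0.48 to 1.12 when either WT-TAC library was left out (replicate 2 and replicate 3). With 2 WT-TAC libraries, the estimates for all members rest on the same 2 hearts.

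**Figure D4:**
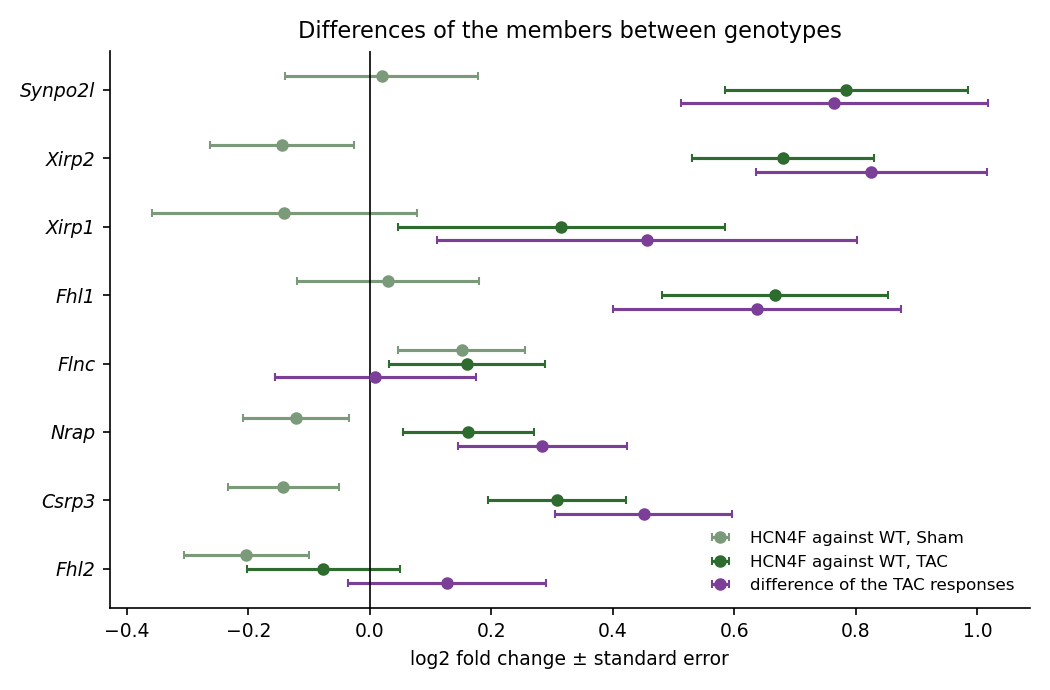
Log2 fold change of each member, with its standard error, between HCN4F and WT in Sham hearts (light green) and TAC hearts (dark green), and the difference of the 2 TAC responses (purple). Sham values lie between -0.20 and 0.15, while TAC values reach 0.78 (Synpo2l) and the difference of responses 0.83 (Xirp2).

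The members took 0.424 to 0.438% of all reads on genes in WT-Sham and 0.362 to 0.425% in HCN4F-Sham libraries. The share was 0.602 and 0.706% in WT-TAC and 0.723 to 0.965% in HCN4F-TAC libraries. Libraries within a group tended to be high or low for several members at once. WT-TAC replicate 3 was above replicate 2 for all 8 members, HCN4F-TAC replicate 3 was lowest of its group for 6, and HCN4F-Sham replicate 2 lowest for 6. Over the 14 libraries each member's log2 CPM correlated with the mean standardised profile of the other 7 at r = 0.92 to 0.97, except for Fhl2 at 0.0978. These libraries share their groups, so the correlations largely restate the step from Sham to TAC.

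The spread between animals differed by gene. In WT-Sham hearts the coefficient of variation was lowest for Nrap at 4.07% and highest for Xirp2 at 11.3%. In HCN4F-TAC hearts it was 7.08% for Nrap and 38.5% for Xirp1, with replicate 1 at 849.7 CPM. The 2 WT-TAC libraries of Synpo2l gave 31.2%.

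Among 12 relatives of the members in their own gene families, 11 were tested (Fhl5 was not) and none was called after TAC in either genotype. The median log2 fold change of the 11 was 0.26 in WT and 0.15 in HCN4F. By the adjusted p-value alone, 2 were higher in WT, Synpo (0.65 ± 0.11 SE) and Synpo2 (0.52 ± 0.13), and 1 in HCN4F, Synpo (0.32 ± 0.09), all from the family of Synpo2l. These genes, chosen after their values were seen, had 116 to 244 CPM across the WT libraries. No other relative, the tested filamin, Csrp and Fhl genes included, passed the adjusted p-value.

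Of 30 other Z-disc genes 29 were tested (Myoz1 was not), and 2 were called higher after TAC in WT and 4 in HCN4F. In WT these were Myot, which encodes the actin-binding Z-disc protein myotilin (log2 fold change 1.64 ± 0.30 SE), and Ankrd1, a titin-binding ankyrin repeat protein (1.04 ± 0.21). In HCN4F they were Ankrd1 (2.27 ± 0.19), its relative Ankrd23 (1.80 ± 0.24), Myot (1.29 ± 0.26) and Ankrd2 (1.96 ± 0.39). Ankrd2, named after its value was seen, had a mean of 0.36 CPM in HCN4F-Sham and 1.38 CPM in HCN4F-TAC hearts. Without HCN4F-TAC replicate 2 the HCN4F values were 2.04 for Ankrd1, 1.67 for Ankrd23, 1.18 for Myot and 1.81 for Ankrd2, and all 4 were called. The median over the 29 genes was 0.22 in WT and 0.25 in HCN4F.

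Without WT-TAC replicate 3 neither Z-disc gene was called in WT, and without WT-TAC replicate 2, WT-Sham replicate 1 or WT-Sham replicate 4 1 was. Between genotypes after TAC, Ankrd1 was called higher in HCN4F hearts, at 1.32 ± 0.23 (SE) with an adjusted p of 0.0486 by edgeR. It passed in 5 of 21 alternative analyses, over which the adjusted p ran from 8.43e-07 to 0.469. Without HCN4F-TAC replicate 2 it was 1.08 ± 0.16 with an adjusted p of 0.00977 by edgeR. In Sham hearts Cryab, a small heat shock protein that binds desmin and titin, was lower in HCN4F by the adjusted p-value alone. It was named after its value was seen. Cryab had 797.1 to 956.5 CPM in HCN4F-Sham and 1344 to 1475 CPM in WT-Sham libraries (log2 fold change -0.70 ± 0.08 SE, adjusted p by edgeR 0.000233).

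Of 26 intercalated disc genes 1 was called higher after TAC in HCN4F hearts, Sorbs2 (1.02 ± 0.12 SE), which encodes an adaptor between actin and adhesion proteins. In WT hearts its log2 fold change was 0.95 ± 0.14. The median over the list was 0.22 in WT and 0.14 in HCN4F. The Sorbs2 call in HCN4F was lost without HCN4F-TAC replicate 2 (0.96), HCN4F-Sham replicate 2 or HCN4F-Sham replicate 3.

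**Figure D5:**
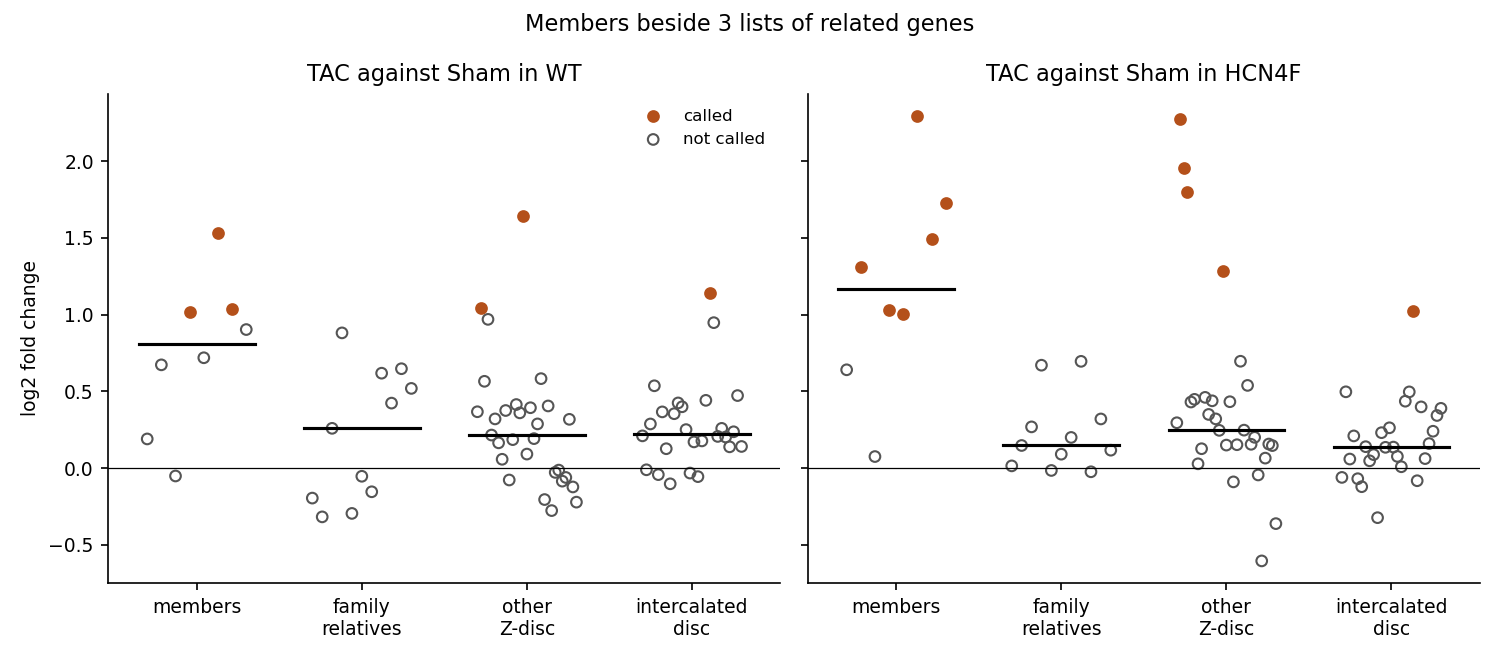
Log2 fold change between TAC and Sham of the members and of 3 lists of related genes, in WT (left) and HCN4F (right). Each point is a gene, filled where it was called, and the horizontal line is the median of the list. The members' medians are 0.81 and 1.17, and those of the other lists lie between 0.14 and 0.26.

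Among 7896 tested genes with a mean of at least 10 CPM, those outside the set most like the members' mean profile over the 14 libraries were Uck2 (r = 0.981), Prnp (0.978), Wipi1 (0.976), Mical2 (0.975) and Hspb7 (0.975). Uck2, a uridine-cytidine kinase, had 31.6 to 48.6 CPM in Sham libraries of both genotypes, 56.3 and 93.9 CPM in WT-TAC and 87.2 to 153.3 CPM in HCN4F-TAC libraries. Mical2, an enzyme that oxidises actin, had 75.8 to 91.6 CPM in Sham, 117.7 and 144.3 CPM in WT-TAC and 139.7 to 169.2 CPM in HCN4F-TAC libraries. Hspb7, a heart-enriched small heat shock protein that binds filamin C, had 2093 to 2257 CPM in Sham, 2728 and 3244 CPM in WT-TAC and 3132 to 3964 CPM in HCN4F-TAC libraries.

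For Xirp1 alone the closest profiles were those of Cfl2 (r = 0.969), Hbegf (0.967), Usp28 (0.956), Nuak1 (0.954) and the member Flnc (0.954). Cfl2, the muscle cofilin, which severs actin filaments, had 157.2 to 193.8 CPM in Sham, 206.1 and 229.6 CPM in WT-TAC and 227.1 to 266.1 CPM in HCN4F-TAC libraries. Hbegf, a ligand of the EGF receptor, had 10.6 to 15.4 CPM in Sham, 22.5 and 27.3 CPM in WT-TAC and 32.7 to 71.6 CPM in HCN4F-TAC libraries.

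For Fhl2 the closest profiles were 0610009B22Rik (r = 0.904), Pex10 (0.888), Emd (0.868), Popdc2 (0.864) and Timm50 (0.858). None of these 5 was separated between TAC and Sham in HCN4F. In WT only Timm50 was, at 54.77 and 57.41 CPM after TAC against 57.53 to 61.91 CPM in Sham. Popdc2, a cAMP-binding membrane protein of striated muscle, had 393.9 to 607.6 CPM in Sham and 468.3 to 567.9 CPM in TAC libraries. The lists of genes like Xirp1 and like Fhl2 had no gene in common.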

How the data were processed

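The authors deposited raw counts of reads per gene, with no normalization, from polyA-selected LV RNA sequenced on an Illumina platform. GRCm38 is named in the submitters' processing notes, and the aligner, the counting program and the use of strand are not given in the sources used here. The study describes 16 samples, and 14 were used. A further 2 columns of counts belong to no sample described here and were not used. All values used were whole. Libraries of a group differed by more than sampling noise (chi-square per gene 6.22 to 61.8), so each counted as 1 sample.

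Genes were kept by filterByExpr by group in edgeR 4.0.16 (R 4.3.3), and counts were scaled by TMM. CPM values used all reads on genes as the library size and no pseudocount. Profiles were compared on log2 CPM with a prior count of 2. One mean per group was fitted over the 14 libraries, without a replicate block, and tested by edgeR's robust quasi-likelihood test (Benjamini-Hochberg over the whole table). Calls needed a log2 fold change beyond 1 besides an adjusted p-value under 0.05, except for the interaction, which used the latter only. Standard errors were derived from the F statistic. The script was tested on simulated data. Exonic lengths were taken from GENCODE M21, and promoters from RefSeq. Alternatives were DESeq2 1.42.0 (all groups, or those compared), edgeR fitted to the compared groups, size factors from DESeq2, no filter, a mean CPM of at least 1, a replicate block, the adjusted p-value alone and each library left out.

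Members, lists and tests were chosen with earlier results of these data known, and the other lists were written from textbook roles. Named were all members; of each other list up to 3 called genes in either direction per TAC comparison, by size of the difference (mean CPM of at least 1), and those called between genotypes; and the 5 genes closest in profile to the members' mean, to Xirp1 and to Fhl2 (mean CPM of at least 10). No gene of the family, other Z-disc or intercalated disc lists was called lower after TAC. Per-animal ages, litters and batches are not given in the sources used here, so no batch was fitted. The other measurements of the study were not analysed here. One result of the intercalated disc list is not reported here.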

Additional observations from a re-analysis of the deposited data

Results flagged for a closer look

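Within groups of 4 libraries, 14 genes, the members and some related genes, were checked for a library far from the other 3, by Dixon's criterion (gap over range above 0.829). That gave 42 checks, of which chance alone flags about 1 in 20, and 2 were flagged, both in HCN4F-Sham replicate 1. Fhl2 had 1398 CPM in that library and 980.8 to 1037 CPM in the other 3, a gap of 0.866 of the range. Ankrd23 had 140.5 CPM there and 66.3 to 76.2 CPM in the other 3, a gap of 0.867 of the range. That library had a fibroblast marker sum of 449 CPM, a smooth muscle marker sum of 183 CPM and an endothelial marker sum of 605 CPM, each the lowest of its group, and the highest cardiomyocyte marker sum, 68500 CPM. Their part in the Fhl2 and Ankrd23 values was not tested. By edgeR on all 14 libraries, no member passed the interaction test between genotypes. Xirp2 did pass when DESeq2 was used on all groups, with an adjusted p of 0.0276, or when HCN4F-TAC replicate 3 was left out.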

How the results depend on the processing

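Of the 824 values of members' log2 fold changes under alternatives, 786 kept their direction and their side of the threshold, 22 fell below it, 3 passed it and 13 changed sign. By the adjusted p-value alone the counts were 6 members in WT, 5 and 14 other Z-disc genes in WT and HCN4F, 5 and 6 intercalated disc genes, and 2 and 1 family relatives. Leaving out 1 library gave 1 to 3 members called in WT, 0 to 2 other Z-disc genes in WT, 0 to 1 intercalated disc genes in either genotype, and 0 to 1 members in the interaction. Where WT-TAC was left with 1 library, that library was assumed to vary like the other groups. DESeq2 on all groups put 1 member, Xirp2, past the interaction threshold. The cause of these changes was not tested.

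Values near 0 changed sign. Without 1 library the Flnc difference between genotypes after TAC ran from -0.0326 to 0.38 and its interaction from -0.184 to 0.23, and the interaction was -0.0064 with no filter. In Sham hearts the genotype difference ran from -0.0487 to 0.13 for Fhl1 and from -0.0598 to 0.097 for Synpo2l.

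Replicate numbers were not given as shared animals or days, and same-numbered libraries correlated at -0.12 to 0.159 over 18 pairs, so the numbers did not pair the samples. With a replicate block 2 members were called in WT and 6 in HCN4F, other Z-disc and intercalated disc genes called in WT came to 0 and 0, and the Flnc interaction was -0.0092. The 2 WT-TAC libraries limit every comparison that uses them.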
